A study of Homo sapiens with 22 samples.

Results

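The genes examined were 6 fibroblast growth factor (FGF) ligands, namely FGF2, FGF4, FGF7, FGF8, FGF17 and FGF18, and the 4 FGF receptors FGFR1, FGFR2, FGFR3 and FGFR4. They were taken by their symbols in the deposited gene tables and made up 10 of the 33694 genes counted. All 10 passed the filter on low counts and were among the 21179 genes tested. Cells came from BJ, an established line of human foreskin fibroblasts, which were reprogrammed in microfluidic chips by daily transfection of mRNAs for POU5F1, SOX2, KLF4, MYC, LIN28 and NANOG under hypoxia, in supplemented Pluriton medium and, from day 9, in StemMACS iPSBrew XF medium. The D0 control was harvested before the first transfection, and treated cells were harvested on D3, D5, D7, D9, D11, D13 and D15. Each of the 8 days had 2 pools, A and B, and each pool held cells from several chips that were mixed, frozen and thawed before 10x 3' single-cell RNA sequencing. Because transfection had ended and the medium had changed by D9, these changes and the passage of time cannot be told apart between D7 and D9. The paper describes culture of the fibroblasts in DMEM with fetal bovine serum, which was replaced by reprogramming medium after D0. Transfection, this earlier change of medium and the passage of time therefore cannot be told apart between D0 and the later days. The p-values below measure the spread between pools, since the labels do not say that the chips of A and B came from separate fibroblast cultures. That of the permutation test on receptor shares also takes in differences between days.

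The unit is the unique molecular identifier (UMI), 1 counted mRNA molecule, and a level is the UMIs of a gene per 1000000 UMIs of all genes in a pool (CPM). Of 44197 barcodes 41975 were kept as cells, 571 to 6142 per pool, with 33181614 to 180056814 UMIs per pool and a median of 23717 to 80168 UMIs per cell. Because 3' reads count each molecule at its end, levels of different genes were set side by side on the CPM scale with no correction for length, although capture may differ between transcripts. In a sum over a pool, fewer cells of a type and less RNA per cell cannot be told apart. No pair of libraries shared more than 41 barcodes, where 41.48 were expected by chance in that pair.

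FGFs are secreted proteins that bind receptor tyrosine kinases on the cell surface together with heparan sulfate, and the bound receptors signal through RAS and MAP kinase. FGF7 is made by mesenchymal cells and acts on the epithelial splice form of FGFR2. FGF4 acts in the early embryo, FGF8, FGF17 and FGF18 form a subfamily of which FGF8 is needed in gastrulation, and FGF2 is the ligand that is added to media for human pluripotent stem cells.

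The promoters of 6 of the 10 members were found in the RefSeq table for GRCh38.p14, as 11 windows of 300 bases that run from 250 bases before to 50 bases after a start site. FGF18 and FGFR3 are shown because both were low in fibroblasts and had their highest level on D9, and FGF7 because it fell over the course. Capitals mark matches, on either strand, to 5 short motifs: GGGCGG (a GC box, found in 45.0% of 35116 promoters), TATAAA (11.5%), CACGTG (7.26%), ATGCAAAT (1.77%) and ACAATG (10.8%), of which no 2 overlapped in these windows. FGF18 lies at chr5:171419397-171419696 on the plus strand, FGFR3 at chr4:1793043-1793342 on the plus strand and FGF7 at chr15:49422992-49423291 on the plus strand.
FGF18: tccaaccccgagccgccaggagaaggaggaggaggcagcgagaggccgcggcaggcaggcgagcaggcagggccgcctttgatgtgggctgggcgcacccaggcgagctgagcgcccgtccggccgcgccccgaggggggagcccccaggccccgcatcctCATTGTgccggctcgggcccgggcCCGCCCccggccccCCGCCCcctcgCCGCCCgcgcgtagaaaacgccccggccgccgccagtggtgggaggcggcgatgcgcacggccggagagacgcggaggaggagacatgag
FGFR3: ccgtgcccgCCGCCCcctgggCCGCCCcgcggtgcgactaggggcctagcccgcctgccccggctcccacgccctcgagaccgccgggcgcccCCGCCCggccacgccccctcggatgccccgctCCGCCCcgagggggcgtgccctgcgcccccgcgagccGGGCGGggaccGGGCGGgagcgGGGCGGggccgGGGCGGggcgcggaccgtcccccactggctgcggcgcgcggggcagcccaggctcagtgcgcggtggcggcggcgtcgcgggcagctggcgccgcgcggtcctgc
FGF7: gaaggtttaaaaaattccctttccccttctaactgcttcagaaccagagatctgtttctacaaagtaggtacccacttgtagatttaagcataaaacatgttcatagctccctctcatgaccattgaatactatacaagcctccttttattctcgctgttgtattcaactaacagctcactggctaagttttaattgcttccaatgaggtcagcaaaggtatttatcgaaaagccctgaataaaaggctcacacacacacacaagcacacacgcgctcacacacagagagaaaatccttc
The FGFR3 window had 86.3% G and C and 8 GC boxes. The FGF18 window had 77.7% G and C, 3 GC boxes and 1 match to ACAATG. The FGF7 window had 40.3% G and C and none of these motifs. Across all promoters the median was 58.7%, with quartiles of 47.0% and 68.0%, so FGF18 and FGFR3 lay above the upper quartile and FGF7 below the lower one. The window of FGF2 (chr4:122826581-122826880, plus strand) had 74.7% G and C and 3 GC boxes, the 2 windows of FGFR4 had 78.7% and 57.3%, and the 5 windows of FGFR2 ranged from 47.3% to 79.3%. A match describes letters in the window and no binding was measured. By the GENCODE annotation FGF4 lies on chromosome 11 (69771022 to 69775341), FGF8 and FGFR2 on chromosome 10 (101770109 to 101780371 and 121478332 to 121598458), and FGFR4 on chromosome 5 (177086905 to 177098144).

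Fibroblasts on D0 expressed 2 of the 6 ligands, FGF2 and FGF7, at 19.7 to 26.7 CPM, while the other 4 were at or near 0. FGF2, whose secreted and nuclear forms act on many cell types, stood at 23.1 CPM in pool A and 26.7 in pool B on D0, 16.3 and 15.2 on D3, 13.8 and 10.6 on D5, and 12.6 and 15.8 on D7. From D9 it stood at 23.7 and 26.9 CPM, then 31.6 and 40.2 on D11, 47.9 and 40.3 on D13, and 49.2 and 45.7 on D15. Each pool of D3 to D7 was below both pools of D0, and each pool of D9 to D15 was above all pools of D3 to D7. FGF2 thus fell by 0.85 on the log2 scale from D0 to D3 to D7 (SE 0.15, edgeR adjusted p = 0.000339) and rose by 1.25 from there to D9 to D15 (SE 0.10, adjusted p = 1.74e-07). Without pool B of D0 the fall was 0.80 and no longer passed (adjusted p = 0.0122). NUDT6 overlaps FGF2 on the opposite strand, and its part in these counts was not tested.

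FGF7, a paracrine factor of fibroblasts, stood at 19.7 CPM in both pools of D0, 6.10 and 4.07 on D3, 5.19 and 4.51 on D5, and 3.64 and 3.51 on D7. It then stood at 2.38 and 1.53 CPM on D9, 2.09 and 2.50 on D11, 1.80 and 1.11 on D13, and 0.964 and 1.14 on D15. The pools of D0, of D3 to D7 and of D9 to D15 formed 3 groups that did not overlap. FGF7 fell by 2.16 from D0 to D3 to D7 (SE 0.20, adjusted p = 2.18e-06) and by a further 1.61 to D9 to D15 (SE 0.15, adjusted p = 5.03e-07). The genome holds near-identical copies of part of FGF7, so reads that matched several places may be missing from its counts.

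FGF4 and FGF17 had no UMI in either pool of D0 or D3, and FGF4 had none on D5. FGF4, an early embryonic ligand and a target of POU5F1 and SOX2, appeared at 0.560 CPM in pool A and 0.760 in pool B on D7, and stood at 10.2 and 8.53 on D9, 5.42 and 13.5 on D11, 8.28 and 4.00 on D13, and 3.25 and 2.95 on D15. Its mean over D9 to D15 was 7.02 ± 3.75 CPM (SD, n = 8), 31.9 times that over D3 to D7 of 0.220 ± 0.347 (SD, n = 6), and the groups did not overlap. The edgeR test compared means of fitted log levels, which differed by 9.35 on the log2 scale (SE 0.49, adjusted p = 3.33e-08). FGF8, a ligand of the primitive streak, stayed between 0.00662 and 0.0630 CPM in every pool of D0 to D7, with 8 UMIs on D0 and 20 over D3 to D7. It then stood at 11.4 and 10.8 on D9, 14.2 and 15.5 on D11, 18.4 and 10.5 on D13, and 9.22 and 8.13 on D15. All 8 late pools lay above all earlier ones, with a mean ratio of 418 between D9 to D15 and D3 to D7 (log2 8.84, SE 0.27, adjusted p = 2.72e-11).

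FGF17, the close relative of FGF8, had 3 UMIs on D5 and 17 on D7. It stood at 1.86 and 2.26 CPM on D9, 28.9 and 15.2 on D11, 21.7 and 16.6 on D13, and 8.98 and 17.4 on D15, so it reached its later level 1 harvest after FGF8. The ratio of D9 to D15 over D3 to D7 was 490 (log2 9.68, SE 0.39, adjusted p = 1.15e-09). FGF18 had the course of a pulse: 0.126 and 0.109 CPM on D0, 0.330 and 0.166 on D3, 1.32 and 1.47 on D5, 1.86 and 1.27 on D7, and 9.54 and 10.6 on D9. On D11 it stood at 3.63 and 3.30 CPM, on D13 at 1.33 and 0.712, and on D15 at 0.693 and 0.771, so that D13 A lay within the range of D5 and D7 and the other 3 pools lay below it. It rose by 2.75 from D0 to D3 to D7 (SE 0.34, adjusted p = 2.4e-05), and the mean of D9 to D15 was 1.33 higher again (SE 0.19, adjusted p = 2.99e-05) although these 2 groups of pools overlapped.

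**Figure D1:**
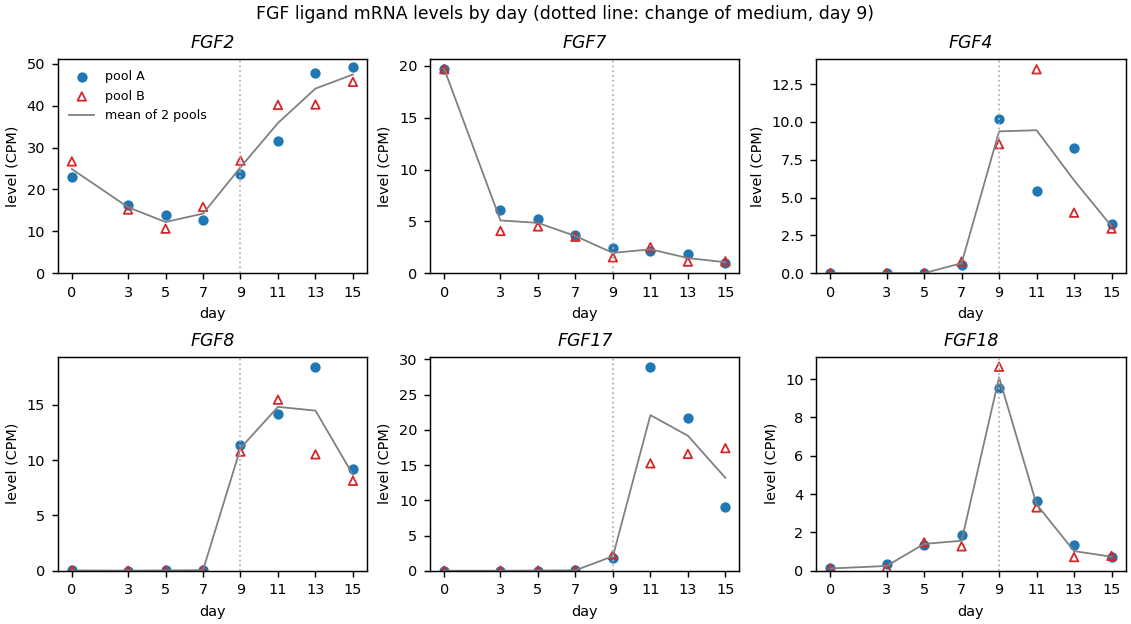
Levels of the 6 FGF ligands in CPM against the day of harvest, with each pool as a point, the mean of 2 pools as a line and the change of medium on day 9 as a dotted line. FGF7 falls from 19.7 CPM on D0, FGF2 dips and then reaches 49.2 CPM, FGF4, at 0.560 and 0.760 CPM on D7, and FGF8 stand at 8.53 to 11.4 CPM on D9, FGF17 goes from 1.86 and 2.26 CPM on D9 to 28.9 and 15.2 on D11, and FGF18 has its maximum on D9.

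FGFR1 was the main receptor by UMIs in every pool. FGFR1, the receptor that mesenchymal cells and pluripotent stem cells share, stood at 113 CPM in pool A and 118 in pool B on D0, 43.3 and 67.6 on D3, 66.2 and 59.0 on D5, 41.0 and 62.1 on D7, and 42.5 and 47.9 on D9. It stood at 53.9 and 69.1 CPM on D11, 58.7 and 89.1 on D13, and 132 and 113 on D15. Every pool of D3 to D13 was below both pools of D0, and D15 overlapped D0 in plain CPM. FGFR1 fell by 1.05 from D0 to D3 to D7 (SE 0.21, adjusted p = 0.000953), a call that was lost without either pool of D0 (adjusted p = 0.0125 without A and 0.0124 without B, at 1.07 and 1.08 lower). Between D3 to D7 and D9 to D15 its log2 difference was 0.18 (SE 0.15, adjusted p = 0.317), and between D0 and D15 it was -0.17 (SE 0.27, adjusted p = 0.59), and neither passed. The fitted value is on the TMM scale, where pools A and B stood at 115 and 104 on D15 and at 122 and 124 on D0, without overlap. On the plain CPM scale the mean of D15 was 1.06 times that of D0.

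FGFR2, which binds different ligands as an epithelial or a mesenchymal splice form, stood at 0.0420 and 0.0476 CPM on D0, 0.0852 and 0.0993 on D3, 0.504 and 0.595 on D5, and 1.68 and 1.40 on D7. From D9 the levels were 6.47 and 7.01 CPM, then 5.004 and 7.54 on D11, 6.66 and 10.4 on D13, and 10.6 and 11.8 on D15. No pool of D0, of D3 to D7 or of D9 to D15 overlapped another of these groups, and the steps were 3.21 (SE 0.35, adjusted p = 8.34e-06) and 4.07 on the log2 scale (SE 0.18, adjusted p = 3.3e-10). The 3' counts do not separate its splice forms. FGFR4, a receptor of epithelia and liver, stood at 0.780 and 0.904 CPM on D0, 1.64 and 0.397 on D3, 2.59 and 1.53 on D5, 2.62 and 3.17 on D7, and 13.4 and 12.3 on D9. Its later levels were 8.24 and 14.8 on D11, 23.0 and 6.47 on D13, and 9.46 and 9.15 on D15, with the pools of D13 far apart. All late pools were above all earlier ones, and the rise to D9 to D15 was 2.55 (SE 0.32, adjusted p = 1.21e-05), while that from D0 to D3 to D7 was 1.09 and did not pass (SE 0.49, adjusted p = 0.0841).

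FGFR3, known for its role in cartilage, had a pulse like that of FGF18. It stood at 0.0540 and 0.116 CPM on D0, 0.469 and 0.179 on D3, 1.196 and 0.822 on D5, 2.73 and 2.84 on D7, and 8.14 and 7.26 on D9, followed by 2.19 and 3.10 on D11, 3.24 and 1.99 on D13, and 1.75 and 1.70 on D15. D7 lay within the range of D11 and D13, and D9 stood above all other pools. The first step was 3.49 (SE 0.41, adjusted p = 1.61e-05) and the second 1.53 (SE 0.21, adjusted p = 2.48e-05).

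**Figure D2:**
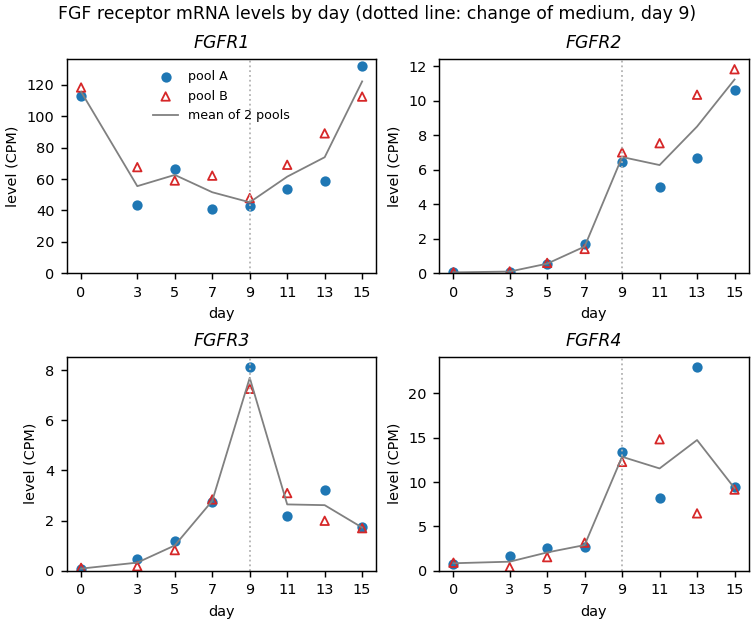
Levels of the 4 FGF receptors in CPM against the day of harvest, with each pool as a point, the mean of 2 pools as a line and the change of medium on day 9 as a dotted line. FGFR1 lies far above the others on every day and its D15 pools overlap those of D0 on this plain CPM scale, FGFR2 is highest on D15, and FGFR3 is highest on D9.

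Counted over the members, 6 of 10 differed between D0 and D3 to D7, with FGF18, FGFR2 and FGFR3 higher and FGF2, FGF7 and FGFR1 lower. Of all genes tested 16.5% were called higher and 17.0% lower there. FGF8, at a fitted -0.19 (adjusted p = 0.834) but a mean of 0.0293 CPM against 0.0244, and FGFR4 did not pass, and the fit gave no usable fold for FGF4 and FGF17, which had no UMI on D0 and none on some of D3 to D7. Against a floor of 3 UMIs over D0, their mean over D3 to D7 was at least 23.0-fold higher for FGF4 and at least 3.02-fold for FGF17, both without a call. Between D3 to D7 and D9 to D15 9 of 10 differed, 8 higher and FGF7 lower, against 23.9% of all genes higher and 23.4% lower, and these 9 were called without each of the 16 pools in turn. Between D0 and D15 8 were higher and FGF7 was lower, against 27.0% and 24.5% of all genes. The median log2 difference of all genes was 0.05, -0.07 and 0.04 in the 3 comparisons. FGF4 was at least 324-fold higher on D15 and FGF17 at least 1380-fold higher, set against a floor of 3 UMIs over both pools of D0. FGF8 was 8.11 higher (adjusted p = 5.74e-09), FGF18 2.39 (adjusted p = 0.000127), FGFR2 7.70 (adjusted p = 2.73e-09), FGFR3 4.10 (adjusted p = 3.58e-06) and FGFR4 3.22 (adjusted p = 0.000353), whereas FGF7 fell by 4.46 (adjusted p = 5.73e-08). FGF2 was 0.68 higher on D15 (adjusted p = 0.00576), which no longer passed without pool A (0.069) or B (0.0228) of D0, A or B of D9 (0.0128 each), or A (0.0333) or B (0.0233) of D15.

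The tests between adjacent harvests placed the switches. Of 70 pairs of a member and an interval 13 were called. FGF7 fell by 1.83 already from D0 to D3 (adjusted p = 0.000267) and FGFR3 rose by 2.02 (adjusted p = 0.0052), in an interval where 19.0% of all genes were called. From D3 to D5 (2.85% of all genes) FGF18 rose by 2.30 (adjusted p = 0.00189) and FGFR2 by 2.29 (adjusted p = 0.00222). From D5 to D7 (1.41%) FGF4 was called at an increase of at least 26.5-fold (adjusted p = 0.00318). The interval from D7 to D9 held 5 calls, against 6.85% of all genes: FGF4 rose by 3.81, FGF8 by 7.64, FGF17 by 5.03, FGF18 by 2.67 and FGFR2 by 2.10, with adjusted p from 1.18e-06 to 0.000372. In this interval 9 of the 10 members had an unadjusted p below 0.05 and DESeq2 called 8, with no share of all genes counted on either basis. FGFR4 (2.89 to 12.8 CPM, adjusted p = 0.0213), FGF2 (14.2 to 25.3 CPM, adjusted p = 0.0106) and FGFR3 (2.79 to 7.70 CPM, adjusted p = 0.0149) were higher on D9 without passing the edgeR threshold of 0.01. From D9 to D11 (4.95%) FGF17 rose by a further 3.35 (adjusted p = 0.000393), while FGF18 fell by 1.62 (adjusted p = 0.00439) and FGFR3 fell by 1.63 (adjusted p = 0.00958).

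After D11 edgeR called no member. From D11 to D13 (0.321% of all genes called) 2 members had an unadjusted p below 0.05 and DESeq2 called 1, and from D13 to D15 (0.137%) 3 had such a p and DESeq2 called 0. The shares in brackets are those of edgeR calls only. The call of FGF7 from D0 to D3 and the 5 calls from D7 to D9 held without each of the 16 pools in turn. The other 7 were lost when 1 or another pool was left out, and a day compared may then rest on 1 pool. FGFR3 from D0 to D3 was lost without D0 A, D0 B, D3 A or D15 B, FGF18 from D3 to D5 without D3 B, and FGFR2 from D3 to D5 without D3 A, D3 B or D5 A. FGF4 from D5 to D7 was lost without any 1 pool of D5 or D7, FGF17 from D9 to D11 without D9 A, FGF18 from D9 to D11 without any 1 pool of D9 or D11, and FGFR3 from D9 to D11 without 12 of the 16 pools.

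The makeup of the receptor mRNAs shifted with these levels. FGFR1 gave 99.2% and 99.1% of the UMIs of FGFR1 to FGFR4 in pools A and B of D0, 95.2% and 99.0% on D3, 93.9% and 95.2% on D5, and 85.4% and 89.3% on D7. On D9 its share was 60.3% and 64.3%, on D11 77.7% and 73.1%, on D13 64.1% and 82.6%, and on D15 85.8% and 83.2%. The lowest values were those of D9 A, D13 A and D9 B, at 60.3%, 64.1% and 64.3%. Of the pools of D9 to D15 only D15 A, at 85.8%, lay above the lowest pool of D3 to D7. The share averaged 73.9% ± 9.95 (SD, n = 8) over D9 to D15 and 93.0% ± 4.87 (SD, n = 6) over D3 to D7, a difference of -19.1 percentage points (exact permutation test over pools, two-sided p = 0.001332, where the smallest possible is 0.000666). Pools were permuted as if independent, although each day gave 2 and the share changed between days. This p therefore mixes differences between pools with those between days and does not treat days as the replicates. Of the remainder, FGFR4 averaged 13.4% over D9 to D15 and 3.39% over D3 to D7, FGFR2 8.29% and 1.25%, and FGFR3 4.44% and 2.35%. The FGFR4 share was 25.1% in D13 A, and in D13 B, D15 A and D15 B, at 5.99%, 6.15% and 6.77%, it was below that of FGFR2, at 9.60%, 6.92% and 8.75%. On D9 A FGFR4 held 19.0%, FGFR3 11.5% and FGFR2 9.17% of the receptor UMIs.

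Among the UMIs of the 6 ligands, FGF2 held 53.7% and 57.4% on D0 and FGF7 45.9% and 42.3%, which left under 1% for the other 4. On D7 FGF2 held 67.1% and 73.7%, and FGF7 19.4% and 16.3%. On D9 no ligand held a majority, with FGF2 at 40.1% and 44.4%, FGF8 at 19.3% and 17.8%, FGF4 at 17.3% and 14.1%, and FGF18 at 16.1% and 17.6%. FGF17 held 33.7% in D11 A and 16.9% in D11 B. By D15 FGF2 held 68.0% and 60.1% again, and FGF7 1.333% and 1.5004%.

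**Figure D3:**
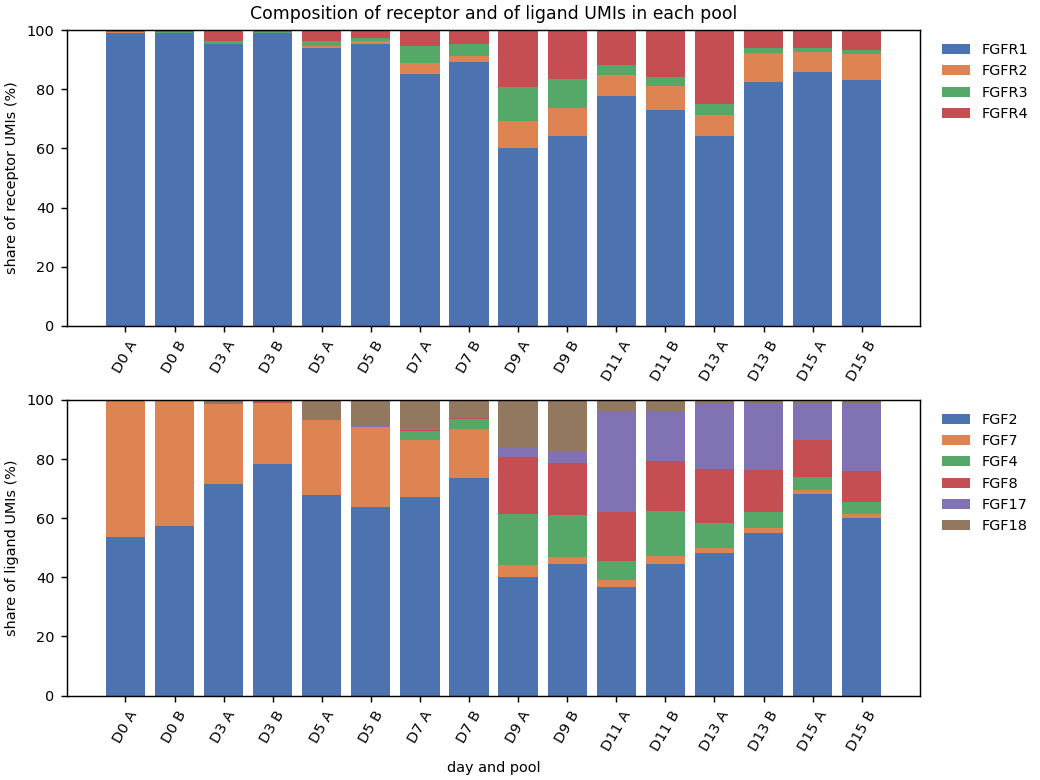
Share of each receptor among the UMIs of FGFR1 to FGFR4, and of each ligand among those of the 6 ligands, in percent for each pool of each day. FGFR1 drops from 99.2% in D0 A to 60.3% in D9 A, and FGF2 and FGF7 together hold nearly all ligand UMIs on D0.

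To find which cells held these mRNAs from D9 on, the 17727 cells of D9 to D15 were sorted into classes by how many markers of a list they expressed after thinning to 5000 UMIs, with no member among the markers. Somatic-like cells (4106, 23.16%) had at least 7 of 16 fibroblast markers such as COL1A1 and LUM, developmental-like cells (9802, 55.29%) at least 5 of 16 markers such as TDGF1 and DPPA4, and mesendoderm-like cells (561, 3.16%) at least 3 of 12 markers such as EOMES and MIXL1. A class is a range of marker counts and not a cell type: 1109, 1552 and 222 cells lay at the limit of the somatic-like, developmental-like and mesendoderm-like class. A further 3258 cells (18.38%) had no class, among them 643 that were high in both of the first 2 lists. Summed over its list, the somatic markers reached 10412 to 21342 CPM in somatic-like cells of a pool and 687 to 2793 in developmental-like cells, the developmental markers 227 to 786 and 3154 to 5138, and the mesendoderm markers 2747 to 4447 in mesendoderm-like cells and 19.1 to 83.6 in developmental-like cells. A list of 10 trophoblast markers, of which 1 was at 0 in each class, summed to 16.9 to 279 CPM over the 3 classes. Of the 6 tested between developmental-like and somatic-like cells, CSH1 (102 against 9.76 CPM, log2 3.62, SE 0.44, edgeR adjusted p = 2.47e-05) and XAGE2 (log2 1.52) were higher in developmental-like cells and TFAP2A (log2 -3.20) and KRT7 (log2 -3.02) lower, and the part of these markers in the results was not tested.

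Developmental-like and somatic-like cells were compared within the 8 pools of D9 to D15. 7 of the 10 members were higher in developmental-like cells and FGF7 was lower, where 34.1% of all genes were called higher and 32.1% lower. FGF2 ranged from 32.6 to 63.9 CPM in developmental-like cells (median 47.6) and from 16.5 to 29.0 in somatic-like cells (median 22.6), with no overlap (log2 1.05, SE 0.14, adjusted p = 3.93e-05). FGF4 ranged from 3.41 to 22.6 CPM (median 9.54) and from 0 to 1.26 (median 0.481), also with no overlap (log2 4.23, SE 0.44, adjusted p = 7.82e-06). FGF8 ranged from 8.35 to 22.9 CPM (median 17.4) and from 0.557 to 3.56 (median 1.18), again with no overlap (log2 3.66, SE 0.33, adjusted p = 2.75e-06). FGFR2 and FGFR4 did not overlap between the classes either, with medians of 11.1 against 1.29 CPM (log2 2.65, adjusted p = 1.03e-05) and 15.1 against 1.64 (log2 3.19, adjusted p = 3.02e-06).

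FGF18 and FGFR3 were higher in developmental-like cells in 8 and 7 of 8 pools, but their ranges over the pools overlapped, and both levels were lower on later days. FGF18 stood at 14.7 and 13.5 CPM in developmental-like cells of D9 A and D9 B and at 0.6998 and 0.802 in those of D15, and in somatic-like cells at 1.45 and 3.75 on D9 and 0 on D15. The somatic-like cells of D15 were 35 and 160, with 1618291 and 3501617 UMIs of all genes. At the developmental-like level of D15 they would hold few UMIs of FGF18. FGFR3 stood at 12.4 and 9.42 CPM in developmental-like cells on D9 and 1.29 and 1.40 on D15, and at 2.23 and 2.76 and then 0.618 and 1.71 in somatic-like cells. Within pools the differences were 2.10 (SE 0.25, adjusted p = 1.96e-05) and 1.58 (SE 0.31, adjusted p = 0.000798), and both were lost when the pool was left out of the model (adjusted p = 0.0278 and 0.0102). FGF7 was lower in developmental-like cells in 8 of 8 pools, with medians of 1.07 and 4.29 CPM (log2 -2.03, SE 0.22, adjusted p = 1.14e-05).

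FGFR1 had medians of 61.3 CPM in developmental-like and 67.1 in somatic-like cells and was higher in the former in 3 of 8 pools (log2 0.03, SE 0.15, adjusted p = 0.882). FGF17, at medians of 4.22 and 1.89 CPM, missed the threshold (log2 1.56, SE 0.60, adjusted p = 0.0345), although DESeq2 called it (adjusted p = 0.00595). Cells with 3 or more mesendoderm markers were kept out of the developmental-like class but not out of the somatic-like class. These markers summed to 17.9 to 97.5 CPM in somatic-like and 19.1 to 83.6 in developmental-like cells. FGF17 was far higher in mesendoderm-like cells (below). The part of this unequal limit in any FGF17 difference between the 2 classes was not tested. None of the 10 class differences was called by edgeR as differing between D9 and D11 on one side and D13 and D15 on the other, where 0.0124% of all genes were called. Of these, 4 had an unadjusted p below 0.05 (FGF17 0.0218, FGFR1 0.0356, FGFR2 0.0375 and FGF2 0.0474), and DESeq2 called FGF17. The edgeR adjusted p of these 4 ran from 0.148 to 0.217. No share of all genes was counted at the unadjusted p or for DESeq2. The mean difference of FGF17 between the classes, on log2(CPM + 0.1), was 3.10 over D9 and D11 and 0.139 over D13 and D15. On D9 the somatic-like levels of FGF17 rested on 4 and 1 UMIs (0.149 and 0.0431 CPM), near the 0.1 that was added. In developmental-like against somatic-like cells FGF17 stood at 13.1 against 8.83 CPM in D11 A and 6.43 against 0.827 in D11 B.

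Mesendoderm-like cells could be compared with developmental-like cells in 5 pools of D11 to D15 that had at least 20 cells of each. FGF17 stood at 463 CPM in mesendoderm-like cells of D11 A, 363 in D11 B, 537 in D13 A, 232 in D13 B and 327 in D15 B. In developmental-like cells of the same pools it stood at 13.1, 6.43, 3.45, 7.43 and 3.39 CPM, far below each of them. The difference was 5.79 on the log2 scale (SE 0.36, adjusted p = 3.18e-05), and 13.3% of all genes were called higher and 13.3% lower in this comparison. FGF2 went the other way, at 7.11 to 17.7 CPM in mesendoderm-like cells against 38.9 to 63.9 in developmental-like cells (log2 -2.17, SE 0.25, adjusted p = 0.000422).

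FGF8 was higher in mesendoderm-like cells in 5 of 5 pools, with medians of 32.4 and 17.7 CPM (log2 0.82, SE 0.15, adjusted p = 0.00297), while FGFR2 was lower (log2 -0.79, SE 0.17, adjusted p = 0.00623) and FGFR4 was lower (log2 -0.91, SE 0.19, adjusted p = 0.00572) in 5 of 5 pools. These 3 calls were each lost when certain pools were left out. FGF8 was lost without D11 B (adjusted p = 0.0137) or D15 B (0.0101), FGFR2 without D11 B, D13 A, D13 B or D15 B (0.016 to 0.0339), and FGFR4 without D11 B, D13 A or D13 B (0.0191 to 0.0237). All 3 were also lost when the pool was left out of the model (adjusted p = 0.0741, 0.0231 and 0.059). FGF4 ranged in mesendoderm-like cells from 0 in D15 B to 48.8 CPM in D11 B and did not pass (adjusted p = 0.895), and neither did FGF7, FGF18, FGFR1 and FGFR3.

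**Figure D4:**
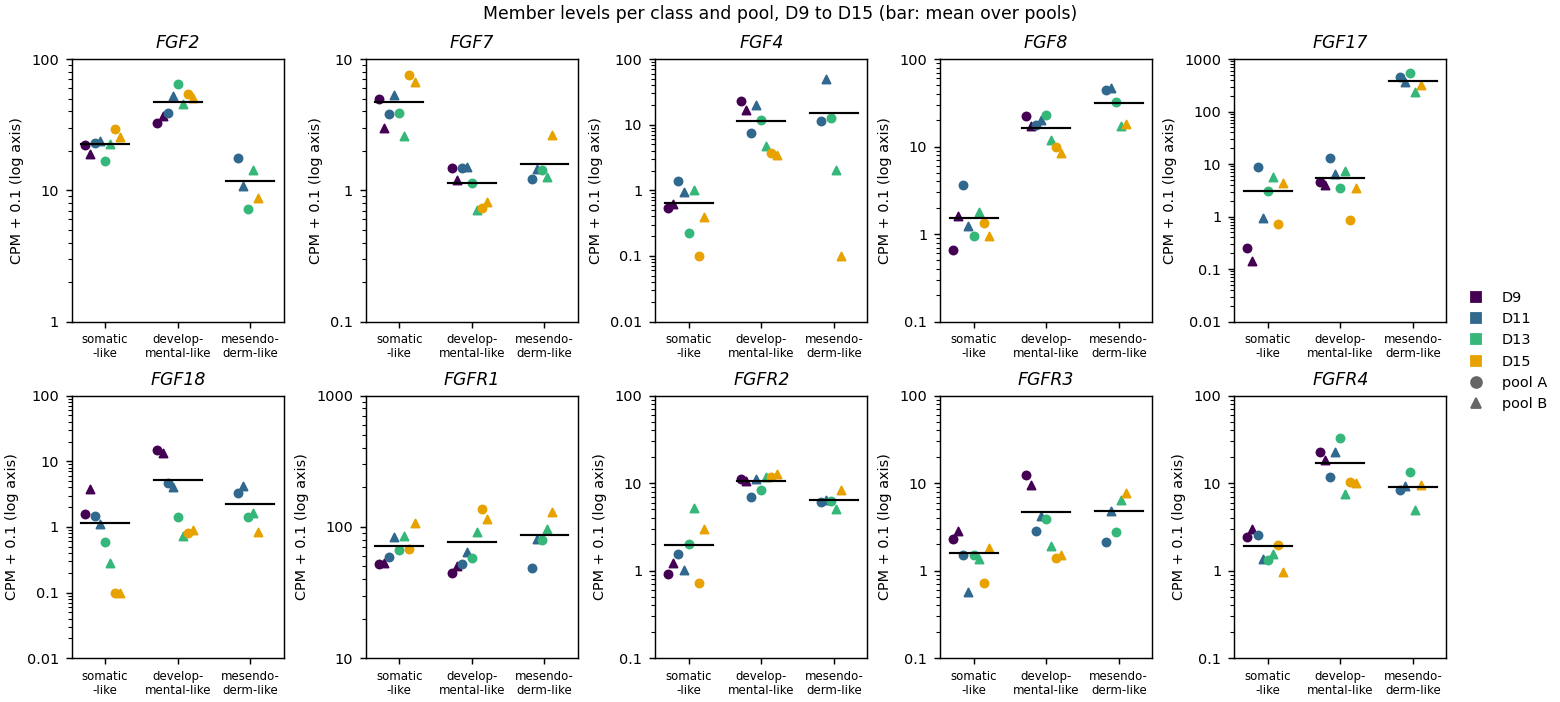
Level of each member in somatic-like, developmental-like and mesendoderm-like cells of each pool of D9 to D15, in CPM + 0.1 on a log axis, with the day as colour, the pool as symbol and the mean as a bar. FGF17 lies between 232 and 537 CPM in mesendoderm-like cells, FGFR1 is at a similar level in all 3 classes, and FGF7 is highest in somatic-like cells.

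Read the other way, the classes differed in which members they supplied. Mesendoderm-like cells held 2.37% of all UMIs of D9 to D15 but 55.9% of those of FGF17, and by pool this share ran from 46.9% in D13 B to 88.3% in D15 A over D11 to D15. On D9, when 2 mesendoderm-like cells were found in both pools together, developmental-like cells held 93.5% and 79.5% of the FGF17 UMIs. Developmental-like cells held 58.5% of all UMIs (38.8 to 86.1% over the pools), and 84.1% of those of FGF4 (64.4 to 97.9%), 80.2% of FGFR4 (65.5 to 93.9%), 79.2% of FGFR2 (64.2 to 94.3%), 75.2% of FGF2 (53.5 to 94.7%) and 74.7% of FGF8 (59.3 to 92.2%). They held 64.3% of the UMIs of FGFR3 (58.8 to 78.0%), 63.5% of FGFR1 (40.9 to 89.7%) and 61.0% of FGF18 (57.4 to 88.0%). The pools weigh differently in these shares, and most UMIs of FGF18 and FGFR3 came from D9, when developmental-like cells were a smaller share of the cells than later, apart from D11 A. In D9 A they held 38.8% of all UMIs, 40.9% of those of FGFR1, 59.7% of FGF18 and 59.1% of FGFR3. Somatic-like cells held 19.2% of all UMIs, 18.8% of those of FGFR1 (2.51% to 32.99% by pool) and 43.9% of those of FGF7 (16.3% to 57.0%). In D13 B, D15 A and D15 B developmental-like cells, which made up most cells there, held more of the FGF7 UMIs than somatic-like cells, at 41.3%, 56.2% and 52.7%.

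**Figure D5:**
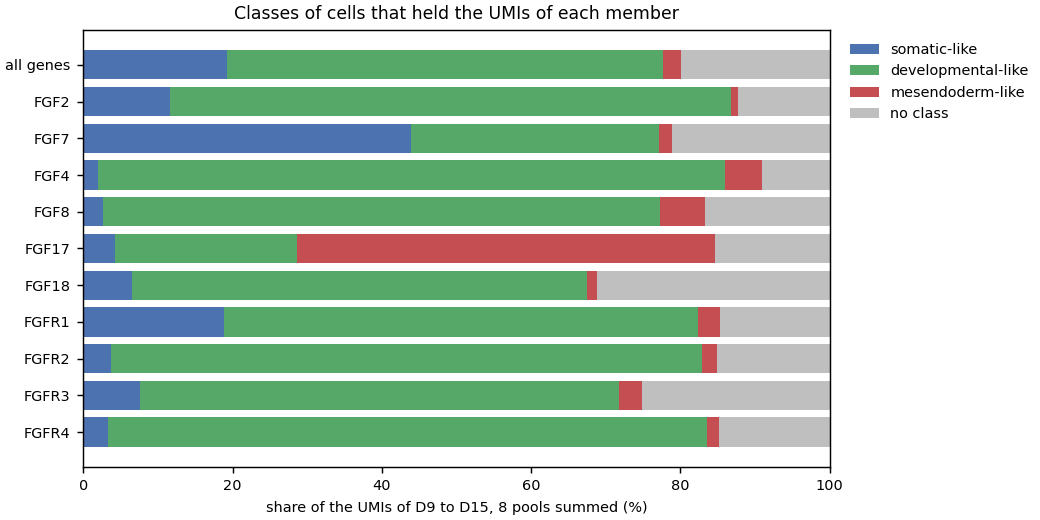
Share of the UMIs of each member, and of all genes, held by each class of cells, in percent over the 8 pools of D9 to D15. Mesendoderm-like cells hold 55.9% of the UMIs of FGF17 and 2.37% of all UMIs, and somatic-like cells hold 43.9% of those of FGF7.

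Shares of cells with a UMI were compared after thinning to 5000 UMIs. For FGF17 they were 42.2% to 56.4% of mesendoderm-like cells, 0.419% to 5.71% of developmental-like cells and 0 to 4.50% of somatic-like cells. At this depth the somatic-like share was above the developmental-like one in the pools of D13 and D15. The somatic-like share rested there on 4, 15, 1 and 6 cells with a UMI. It was 1.07% against 0.986% in D13 A, 3.68% against 2.97% in D13 B, 2.86% (1 of 35 cells) against 0.419% in D15 A, and 3.75% against 1.48% in D15 B. The highest of the somatic-like values, 4.50%, was that of D11 A, where 30.9% of somatic-like cells had a FGF17 UMI without thinning against 2.54% in D11 B, at median depths of 43986 and 32972 UMIs. Without thinning the FGF17 shares were 66.7% to 85.4%, 4.40% to 50.7% and 0.242% to 30.9% in the 3 classes. Developmental-like cells, which were deeper, then had the higher shares on D13 and D15. These were 7.40% against 5.08%, 21.1% against 13.5%, 4.40% against 2.86% and 9.74% against 8.75%. In CPM somatic-like cells were lower in D13 A (2.96 against 3.45), D13 B (5.65 against 7.43) and D15 A (0.618 against 0.770). They were higher in D15 B (4.28 against 3.39). For FGF4 the shares were 1.83% to 10.6% of developmental-like cells and at most 0.800% of somatic-like cells, and without thinning 9.62% to 49.2% and 0 to 5.70%. Over all cells of a pool, FGFR1 was seen in 43.6% and 44.6% of cells on D0, 19.6% and 20.6% on D9, and 48.5% and 41.3% on D15 at this depth, and without thinning in 90.4% and 94.0%, 83.3% and 86.5%, and 96.7% and 90.1%. FGFR2 was seen in 0.0488% and 0% on D0 and in 5.43% and 5.46% on D15, and without thinning in 0.114% and 0.108% and in 39.9% and 28.5%.

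The members were set beside other genes of the pathway. Of 12 further FGF ligands 10 were tested, and 0 rose and 5 fell from D0 to D3 to D7 (median log2 -0.21, or -1.31 with 2 genes at the bound that the floor allows), beside 16.5% and 17.0% of all genes tested. Then 7 rose and 2 fell to D9 to D15 (median 2.47), beside 23.9% and 23.4% of all genes. By edgeR 5 were higher and 3 lower on D15 than on D0 (median 2.45), beside 27.0% and 24.5%. FGF1, a ligand of all 4 receptors, went from 22.2 ± 0.00512 CPM (SD, n = 2) on D0 to 4.39 ± 1.65 over D3 to D7 (n = 6) and 9.92 ± 5.18 over D9 to D15 (n = 8). FGF5 went from 23.6 ± 0.233 to 12.3 ± 6.06 and 3.23 ± 2.55 CPM, and both, like FGF7, were lower on D15 than on D0 (log2 -2.18 and -5.22, adjusted p = 5.38e-06 and 7.36e-08). FGF19, an endocrine ligand that binds FGFR4, had no UMI on D0 and averaged 0.587 ± 0.990 over D3 to D7 and 11.4 ± 2.35 over D9 to D15, a ratio of 19.3. Its fitted log2 difference there was 8.05 (SE 0.35, adjusted p = 2.42e-09), and D15 was at least 843-fold above the floor of D0. In developmental-like cells FGF19 stood at 17.4 CPM against 1.49 in somatic-like cells (log2 3.76, SE 0.39, adjusted p = 8.36e-06), whereas FGF1 and FGF5 stood at 3.52 against 39.9 and at 0.333 against 14.3 (log2 -3.47 and -5.64, adjusted p = 2e-06 and 1.35e-06).

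ESRP1 and ESRP2, the epithelial regulators that favour the epithelial splice form of FGFR2, rose in the same comparison as FGFR2. ESRP1 went from 0.353 ± 0.499 CPM over D3 to D7 to 27.1 ± 8.81 over D9 to D15 (ratio 76.8), with a fitted log2 difference of 8.51 (SE 0.24, adjusted p = 1.48e-11). ESRP2 went from 0.183 ± 0.210 to 5.22 ± 2.32 (log2 5.48, SE 0.35, adjusted p = 1.23e-08). From D0 to D3 to D7 neither passed. In developmental-like cells they stood at 38.2 and 7.17 CPM, and in somatic-like cells at 3.15 and 0.756, with log2 differences of 3.88 and 3.23 (adjusted p = 4.59e-06 and 8.03e-06).

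Among 9 feedback inhibitors of FGF and MAP kinase signalling 5 rose and 1 fell from D0 to D3 to D7 (median 1.02), where 16.5% of all genes tested rose and 17.0% fell, and 1 rose and 5 fell from there to D9 to D15 (median -0.53), where 23.9% of all genes rose and 23.4% fell. SPRY1 rose from 7.97 ± 0.361 to 69.8 ± 30.7 CPM (log2 3.01, SE 0.47, adjusted p = 0.000149), and DUSP6, the phosphatase of ERK, rose from 40.6 ± 0.715 to 95.9 ± 21.5 (log2 1.197, SE 0.14, adjusted p = 1.22e-05) and fell to 45.0 ± 8.21 (log2 -1.23, SE 0.08, adjusted p = 2.29e-08). Of 6 transcriptional targets 3 rose and 2 fell in the first step (median 0.76), and 0 rose and 2 fell in the second (median -0.10). ETV4 rose from 4.47 ± 0.581 to 51.8 ± 21.1 CPM (log2 3.45, SE 0.43, adjusted p = 2.72e-05), and FOS fell from 453 ± 21.2 to 72.7 ± 20.7 (log2 -2.69, SE 0.15, adjusted p = 7.55e-08). In the comparison of classes 1 of the 9 inhibitors, DUSP5, was higher in developmental-like cells and 6 were lower (median -0.70), beside 34.1% of all genes tested that were higher and 32.1% that were lower. DUSP6 stood at 29.0 against 96.5 CPM (log2 -1.68, SE 0.09, adjusted p = 2.24e-07). Of the 6 targets 2 were higher in developmental-like cells and 3 lower (median -0.29), read against the same 34.1% and 32.1%, with ETV4 higher at 83.9 against 32.6 CPM (log2 1.18, SE 0.16, adjusted p = 6.39e-05) and IER3, EGR1 and FOS lower (log2 -2.84, -1.97 and -1.06). SPRY1 stood at 46.7 against 73.1 CPM (log2 -0.70, SE 0.14, adjusted p = 0.000699).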

How the data were processed

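Single-cell RNA-seq libraries were prepared from BJ fibroblasts on 8 days of reprogramming, with 2 pools a day. The deposited files hold raw UMI counts per gene and barcode, which the authors made with Cell Ranger 2.2 on hg38 (GRCh38) without normalization and before their cell filters, 1 matrix for each of 22 libraries. Aliquots of a pool were added together, which gave 16 pools. A barcode was kept as a cell if it had 1000 genes or more and mitochondrial UMIs made up no more than 10%, which removed 2222 barcodes. Counts were summed per pool, genes were kept by filterByExpr (21179), and days were compared in R 4.3.3 by the quasi-likelihood test of edgeR 4.0.16 on TMM-scaled sums, with a single fit over all 16 pools. A contrast over several days compares the means of their fitted log levels. A gene was called at a Benjamini-Hochberg adjusted p below 0.01 over all genes tested and a log2 fold change beyond 0.25. Shares of all genes were counted for these edgeR calls only. A fold against a group with no UMI was set against a floor of 3 UMIs over the group, and such floors cover counting error only.

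Cells were thinned to 5000 UMIs for the classes and for shares of cells. Somatic-like cells had at least 7 somatic and at most 3 developmental markers, developmental-like cells at least 5 developmental, at most 6 somatic and fewer than 3 mesendoderm markers, and mesendoderm-like cells at least 3 mesendoderm and at most 6 somatic markers. These limits were set after marker counts per cell had been seen. Class sums of a pool with at least 20 cells were tested in edgeR with the pool as a block. No doublet caller was used. The members, the pathway lists and the tests were chosen with earlier results of these data known. Pathway genes are named where they were among the 3 called genes of their list with the largest change and had at least 5 CPM on some day. The comparisons of other ligands, inhibitors and targets between classes, and the naming of DUSP5 there, were chosen after their values were seen. The test scripts were tested on simulated data. Alternatives were DESeq2 1.42.0, its size factors, other filters on genes and cells, 2500 cells per day, only the days compared, a replicate block, other thresholds and class limits, other thinning depths and each pool left out. Scripts were run with Python 3.11.15, numpy 2.4.6, scipy 1.17.1 and matplotlib 3.10.9. Promoter windows came from RefSeq on GRCh38.p14 and gene positions from GENCODE. Proteomic data and other reprogramming systems were not analysed here.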

Additional observations from a re-analysis of the deposited data

Results flagged for a closer look

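Of 28 series of 4 to 10 values that were examined for a sample far from the others, 2 held one, where chance gives about 1 in 20. The log2 difference of FGF2 between developmental-like and somatic-like cells was 1.948 in D13 A and 0.569 to 1.136 in the other 7 pools, a gap of 0.588 of the whole range (limit 0.526 for 8 values). The same difference of FGFR1 was 1.014 in D15 A and -0.385 to 0.09509 in the other 7, a gap of 0.657 of the range, and D15 A held 35 somatic-like cells. Both differences were computed on log2(CPM + 0.1).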

How the results depend on the processing

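The number of members called kept within 1.5 times its value in the 3 main comparisons under all alternatives that were run. With each pool left out it ranged from 4 to 6 for D3 to D7 against D0, from 9 to 9 for D9 to D15 against D3 to D7, from 8 to 9 for D15 against D0, from 8 to 8 for developmental-like against somatic-like cells, from 2 to 5 for mesendoderm-like cells, from 0 to 0 for the class difference between days, and from 10 to 19 of 70 for adjacent days. The FGFR1 share moved from -20.83 to -17.18 points. For adjacent days 24 pairs were called at an adjusted p below 0.05 and 22 by DESeq2 (13 by edgeR at 0.01), without a count over all genes under these alternatives.

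A replicate block by pool letter gave 6, 9, 9 and 14 calls in the 3 main comparisons and the adjacent days. The letters do not pair the pools: over 28 pairs of days the A to B differences correlated at -0.233 to 0.599 (median -0.0151), with 7 pairs over 0.1. Without the pool as a replicate block, 2 calls were left for mesendoderm-like cells and 6 for developmental-like against somatic-like cells.

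Directions turned only for values that had not passed. FGF8 in D3 to D7 against D0 was 0.002772 with all barcodes, 0.908 with 2500 cells per day and ranged from -0.953 to 1.582 with a pool left out (the latter without D0 A). FGFR1 in D15 against D0 was 0.01592 for genes in at least 5% of cells and 0.004972 with 2500 cells per day, and between classes it was -0.07814 without D15 A, and up to 0.1483 without another pool. In mesendoderm-like cells FGF4 was -0.5281 by DESeq2, -0.0704 without D11 A and -0.4362 without D11 B, and up to 0.315 without another pool, and FGF18 was 0.2067 without D11 A and down to -0.2851. The class difference between days was called for 1 member by DESeq2. The causes were not tested. With no filter on genes the FGF2 rise on D15 over D0 no longer passed (0.6445, adjusted p = 0.0219), and with stricter class limits FGFR4 in mesendoderm-like cells did not (-0.9549, adjusted p = 0.0105).

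Each day rests on 2 pools. FGF4, FGF8 and FGF17 rested on few UMIs before D7, so folds from those days have wide errors. Day means scaled by TMM were 0.893 to 1.16 times those of the plain CPM, and 11 of 80 day means moved by more than the spread of their pools. At other thinning depths 18 of 20 shares of cells moved, since a share grows with depth.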

Other observations

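The genes with the course most like that of each member were found by Pearson's r of log2(CPM + 1) over the 16 pools among 11211 genes, as a description, since all values share the pools and their depth. FGF17 was most like EOMES (r = 0.9939), PPP1R17 (0.9877) and GATA6 (0.985), and EOMES and GATA6 are among the markers of the mesendoderm-like class. FGF8 was most like LEFTY2 (0.9908) and LEFTY1 (0.9886), antagonists of NODAL, and KHDC3L (0.9833), and FGF4 like TJP3 (0.9889), SP5 (0.9791) and NODAL itself (0.9752). LEFTY2 is a developmental marker. FGFR2 was most like CRYBB1 (0.9936), RP11-771K4.1 (0.9927) and ERVH48-1 (0.9916), and FGFR4 like SSC4D (0.9845), ARHGEF16 (0.9787) and ALDH3A2 (0.9713). FGF7 had FBXL2 (0.9933), ARMC9 (0.9895) and OSR2 (0.987) beside it, FGF2 had C3orf67 (0.9742), RAB6B (0.9736) and LINC01315 (0.9696), and FGFR1 had IKZF4 (0.9502), UPF3A (0.9439) and TCF20 (0.935). The 2 members with a peak on D9 had no gene in common among these 3: FGF18 had SUN3 (0.959), SUSD2 (0.951) and MCHR1 (0.9233), and FGFR3 had LINC00707 (0.9768), CD177 (0.965) and CD70 (0.9562).

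Heparan sulfate core proteins, which carry the chains that act as co-receptors of FGFs, and the enzymes that make or edit these chains moved in both directions. Of 16 genes 4 rose and 6 fell from D0 to D3 to D7 (median log2 -0.46), 3 rose and 5 fell to D9 to D15 (-0.31), and 4 were higher and 8 lower on D15 than on D0 (-1.34). Of all genes tested 16.5% rose and 17.0% fell in the first of these steps and 23.9% and 23.4% in the second, and 27.0% were higher and 24.5% lower on D15 than on D0. GPC4, a glypican, went from 0.182 ± 0.0114 CPM (SD, n = 2) on D0 to 13.6 ± 11.7 over D3 to D7 and 51.3 ± 13.6 over D9 to D15, and GPC3 from 0.0482 ± 0.00873 to 1.14 ± 1.60 and 31.6 ± 14.4, whereas the syndecan SDC3 fell from 20.1 ± 2.06 on D0 to 4.93 ± 0.676. Of the 16, 1 was higher and 11 were lower in developmental-like than in somatic-like cells (median -0.91), beside 34.1% and 32.1% of all genes, and GPC3 and GPC4 were not called there (26.2 against 40.4 and 45.9 against 46.3 CPM, adjusted p = 0.0252 and 0.735).

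Of 9 receptor-like and binding proteins 2 rose and 1 fell in the first step (median 0.90), and 4 rose and 1 fell in the second (0.62), to be read against the shares of all genes above. IL17RD, an inhibitor of FGF signalling, rose from 3.93 ± 2.24 to 9.71 ± 1.87 CPM in the second (log2 1.40, SE 0.13, edgeR adjusted p = 4.23e-07). Of 10 receptor adaptors 0 rose and 2 fell in the first step (median -0.09), where 17.0% of all genes fell, and edgeR called 0 of the 10 in the second (median -0.07), where 3 had an unadjusted p below 0.05. No share of all genes was counted at that unadjusted p. On D15 1 of the 10 was higher and 3 were lower than on D0, beside 27.0% and 24.5% of all genes, with PLCG1 at 10.1 ± 0.0818 against 4.48 ± 0.316 CPM (adjusted p = 0.0026) and SHC1 at 53.0 ± 3.74 against 88.0 ± 4.90 (adjusted p = 0.000323).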
